A study of Mus musculus with 12 samples.

Results

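The cells described here were T cells of untreated (NT) MC38 tumours, taken on day 1 or on day 3 after the tumour-draining lymph node had been photoconverted. They were chosen by their hashtag: in the 2 capture wells that held untreated tumours, a cell was kept when its top hashtag was NT-D1 or NT-D3, with 20 UMIs or more of that tag and 3 times as many as of the runner-up, 500 genes or more and no more than 10% of UMIs from mitochondrial genes. In all, 1618 cells met the rule, of 2740 cells kept in the whole series by the same filters. Another 41 barcodes with an NT hashtag were left out by the gene and mitochondrial filters, 0 were lost to the hashtag rule alone, and 0 kept barcodes occurred in more than 1 well.

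MC38 is a mouse colon adenocarcinoma line. The hosts carried 1 copy of Kaede, a fluorescent protein that turns from green to red under violet light. The draining node was exposed to that light on day 14 of tumour growth, and tumours were taken on day 15 (24 h later, day 1) or day 17 (72 h later, day 3). Untreated tumours received no radiation. For each day there were 2 replicates, each a pool of 4 tumours, and CD90.2+ cells were hashtagged and then sorted into red and green. Each replicate occupied 1 well together with a day 1 pool of tumours irradiated with 12 Gy (RT-D1), which entered the statistical fits only to help estimate the spread between pools. A red cell in the tumour had been in the draining node when the light was on, so a red cell had been in the tumour for at most 1 day at day 1 and for at most 3 days at day 3. A green cell was sorted as not converted. It could have been in the tumour already or have come from elsewhere, and green cells served as the reference. How completely the node was converted, and whether converted cells were later sorted as green, was not tested. Day 1 and day 3 tumours also differ in their own age, which all colours share.

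T cells primed in a draining node leave it along a gradient read by the receptor S1PR1, and enter the tumour from blood as recently activated cells. In tumours, continued contact with antigen drives T cell receptor signals, effector cytokines and cytolytic granules, and over time CD8+ T cells can take on an exhausted state with inhibitory receptors such as PD-1, LAG3 and TIM-3. Regulatory T cells, marked by FOXP3, restrain other T cells and in tumours carry an activated programme with CD39 (Entpd1), CCR8 and suppressive cytokines.

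The hashtag oligonucleotides decide which cell is called red and which green, so their sequences are shown first. The same 4 sequences were used in both wells, with the colours exchanged between replicates in the names of the deposited count matrices.
Day 1 tag A, named NT-D1 Red in replicate 1 and NT-D1 Green in replicate 2: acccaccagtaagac
Day 1 tag B, named NT-D1 Green in replicate 1 and NT-D1 Red in replicate 2: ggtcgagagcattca
Day 3 tag A, named NT-D3 Red in replicate 1 and NT-D3 Green in replicate 2: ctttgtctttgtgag
Day 3 tag B, named NT-D3 Green in replicate 1 and NT-D3 Red in replicate 2: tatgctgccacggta
The tag numbers in the sample labels give the same colours in replicate 1 and the opposite colours in replicate 2. The colours of the matrices were followed here, and the colours of the label tags were run as an alternative. The day of a cell does not depend on this choice.

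T cell receptor (TCR) sequences gave a second reading of how the hashed samples relate. A clone was defined as cells with identical alpha and beta CDR3 nucleotide sequences. V and J segments name a clone below and were not part of the match. Red and green samples of the same well, which the matrix names put in 1 tumour pool, shared 5 clones over 4 pairs of samples, and 2 of these pairs shared 0. Samples of the same day that carried the same hashtag sequence in the other well shared 44 clones over 4 pairs, with 6 to 15 in each pair. Samples of the same colour and day in the other well shared 3 clones over 4 pairs, and samples of different days shared 0 clones in 16 pairs. Clones therefore followed the hashtag sequence across the wells and not the replicate number; the cause was not tested. Which red sample belongs with which green sample is thus uncertain, and results that pair them are marked as such.

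**Figure D1:**
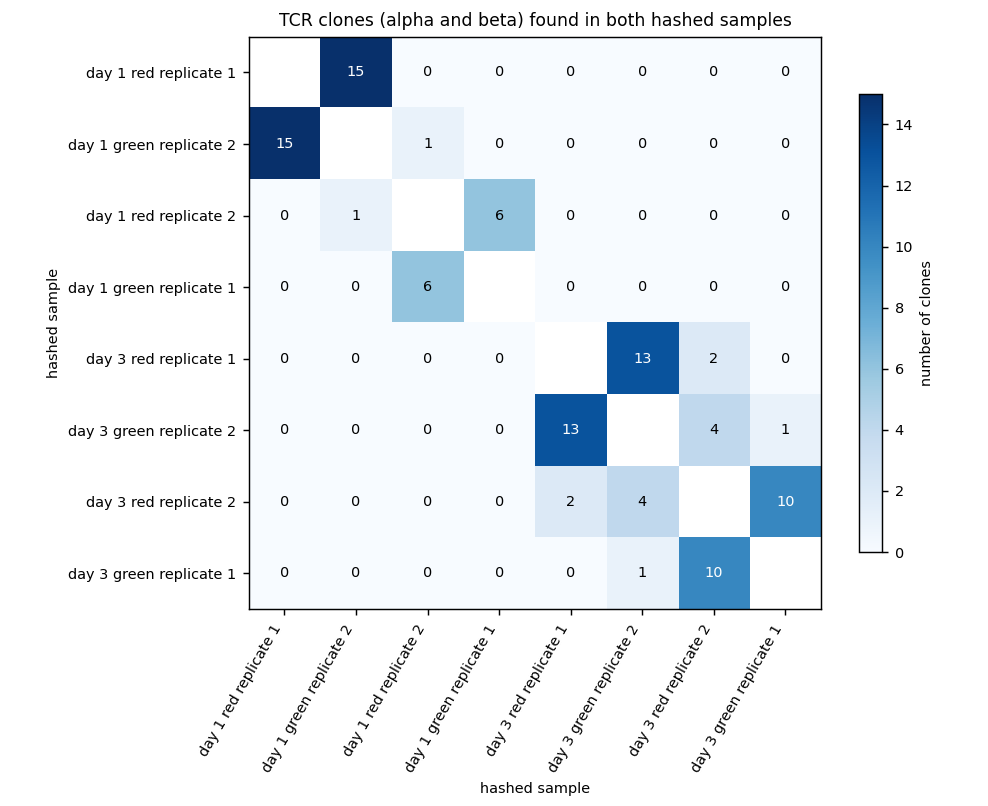
Number of TCR clones (alpha and beta) found in both of 2 hashed samples, for every pair of the 8 samples; each axis lists the samples by day, colour and replicate. The 4 pairs that carry the same hashtag sequence in the other well hold 6, 10, 13 and 15 shared clones, and all pairs of different days hold 0.

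The largest shared clones show this directly, and their CDR3 nucleotide sequences follow. The clone TRBV20, TRBJ2-4, TRAV1 and TRAJ7 had 20 red cells in day 1 replicate 2 and 1 green cell in day 1 replicate 1. The clone TRBV16, TRBJ2-7, TRAV4-3 and TRAJ30 had 10 red cells in day 3 replicate 1 and 5 green cells in day 3 replicate 2, and the clone TRBV10, TRBJ1-1, TRAV1 and TRAJ37 had 7 and 7 cells in the same 2 samples. The cells of these 3 clones were CD8+ T cells.
TRBV20 clone, beta: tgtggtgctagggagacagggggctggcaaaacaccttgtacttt
TRBV20 clone, alpha: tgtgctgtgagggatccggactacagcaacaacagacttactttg
TRBV16 clone, beta: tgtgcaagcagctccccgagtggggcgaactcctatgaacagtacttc
TRBV16 clone, alpha: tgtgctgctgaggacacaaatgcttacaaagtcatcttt
TRBV10 clone, beta: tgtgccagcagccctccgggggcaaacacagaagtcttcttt
TRBV10 clone, alpha: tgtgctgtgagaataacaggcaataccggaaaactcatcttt
With the samples paired by hashtag sequence, 17.5% of red cells in day 1 replicate 1 belonged to a clone also found in green cells (21 of 120 cells with both chains, exact binomial 95% interval 11.2 to 25.5%). In red cells of day 1 replicate 2 this share was 9.56% (28 of 293 cells, 6.44 to 13.5%). In red cells of day 3 it was 36.1% in replicate 1 (39 of 108 cells, 27.1 to 45.9%) and 8.54% in replicate 2 (24 of 281 cells, 5.55 to 12.4%). The day 3 share lay above both day 1 shares in 1 replicate and below both in the other, so the days overlapped. These intervals cover counting error only.

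Shared clones were mostly CD8+. Among red CD8+ cells with both chains, 16 of 57 and 28 of 197 cells at day 1, and 38 of 84 and 22 of 176 cells at day 3, belonged to a clone that green cells of the same tag also held. Among red Treg-like cells the counts were 4 of 49 and 0 of 62 at day 1, and 1 of 15 and 2 of 62 at day 3. All 44 shared clones were of 1 lineage in both colours.

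Median depth per hashed sample ran from 18446 to 26106 UMIs per cell, with 4300 to 5019 genes and a median mitochondrial share of 1.46 to 1.79%. The deepest cells were those of red day 1 replicate 1 and the shallowest those of red day 3 replicate 2. A TCR beta chain was read in 90.2 to 95.1% of cells. Cells were clustered and grouped into CD8-like, Treg-like and CD4 conventional-like cells, small naive CD8-like and naive CD4-like clusters, and a CD8 cluster led by Klra receptor genes. Foxp3 was detected in 92.0 to 100% of Treg-like cells and in 0 to 4.0% of CD4 conventional-like cells of each sample. Each replicate was 1 pool of tumours, so every test rests on 2 pools for each day.

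The first question was what CD8-like cells from the node had become by day 3. In red CD8-like cells, the granzymes Gzma and Gzmb, 5 genes induced by T cell receptor signals and 8 cell cycle genes fell from day 1 to day 3, and Bcl2, Nrgn and 3 interferon-induced genes rose, when the 2 untreated pools of each day were fitted alone. Effector cytokines did not pass in red. In green CD8-like cells of the same wells 4 genes passed in that fit, Hspa1b and Gm47015 higher and Trav8n-2 and Gzmf lower at day 3. Cell cycle genes in green were lower at day 3 without passing. Counts were summed over 55 and 178 red cells at day 1 and 75 and 113 at day 3, and over 48 and 121 green cells at day 1 and 70 and 144 at day 3. Values below are CPM, the UMI counts of a gene in these sums scaled to the effective total of the sum, replicate 1 before replicate 2, and changes are log2 of day 3 over day 1 with their standard error (SE), from edgeR's quasi-likelihood test with Benjamini-Hochberg adjustment.

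With the RT-D1 pools in the estimate of the spread, 0 of 10408 genes (0.0%) passed an adjusted p of 0.05 in red CD8-like cells, and 0 (0.0%) passed in green. At an unadjusted p below 0.05 there were 1032 genes (9.92%) in red and 246 (2.36%) in green. With the NT pools alone, 138 of 10181 genes (1.36%) passed in red, 54 of them higher (0.53%) and 84 lower (0.825%) at day 3, and 4 (0.0393%) passed in green. DESeq2 on all pools called 39 genes in red and 1 in green. Each statement that a gene of CD8-like cells rose or fell refers to the fit of the NT pools alone, and with the RT-D1 pools included edgeR called none of them under the same filter, cell classes and libraries. With all pools DESeq2 called some of them, among them Nr4a1 (adjusted p = 0.0302), Mki67 (0.000211), Nrgn (0.0178), Gbp10 (0.0146), Cd40lg (0.0453), Gzmm (0.029), Ms4a4c (0.0181) and Ggt1 (0.00185). With all pools edgeR called 22 genes when cells were gated on markers and 22 when clusters of mixed lineage were left out, Cd40lg in both (0.00121 and 0.0268). The day 3 samples lay above both day 1 samples for 22.6% of all genes in red and below both for 22.8%, and in green for 14.5% and 18.1%.

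Different clusters held most red CD8-like cells on the 2 days. At day 1, 30.5% of them were in a cluster led by Il2, Ccl3 and Ifng and 28.3% in one led by Cphx1, Cd7 and Gzma. At day 3, 29.3% were in a cluster led by Nrgn and Slc17a6 and 27.1% in one led by Gzmf, Styk1 and Klra5. The genes that lead a cluster were used to form it, so they are not separate evidence.

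Effector cytokines are described first. Ifng, which encodes interferon gamma, was at 3613 and 5499 CPM in red CD8-like cells at day 1 and at 2404 and 1105 CPM at day 3. In green cells it was at 529 and 735 CPM at day 1 and at 1116 and 535 CPM at day 3. Both red day 3 samples lay below both red day 1 samples, while the green samples of the 2 days overlapped. The red change was -1.36 ± 0.49 (SE, adjusted p = 0.428) with all pools and -1.47 ± 0.42 (adjusted p = 0.145) with the NT pools alone, so neither passed in edgeR. The difference between the red and the green change did pass with the NT pools alone (log2 -1.79 ± 0.12, adjusted p = 0.00304). That test pairs red with green by well, and did not pass with the RT-D1 pools included and the same filter on low counts. With all pools in the fit, the difference turned to 0.10 with the colours of the label tags. With the NT pools alone the test was not repeated with those colours or for samples paired by hashtag sequence.

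Ccl4, a chemokine made by stimulated T cells, had the same order. It was at 6336 and 10080 CPM in red cells at day 1 and 5170 and 3442 CPM at day 3, against 536 and 1114 and then 1495 and 904 CPM in green cells. The difference between the red and green changes, again paired by well, was -1.54 ± 0.14 (edgeR adjusted p = 0.014, NT pools alone). These 2 genes were all that passed for this difference among 10181 genes (0.0196%). Ccl3, a related chemokine, went from 3267 and 4941 to 1995 and 1427 CPM in red cells and did not pass (adjusted p = 0.366, NT pools alone). Tnf, at 219 and 335 and then 246 and 208 CPM, and Il2, at 184 and 260 and then 316 and 297 CPM, did not pass either. Il2 in green cells was between 0 and 8.81 CPM on both days, so the red cells of day 3 still held a transcript that was nearly missing from green cells.

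**Figure D2:**
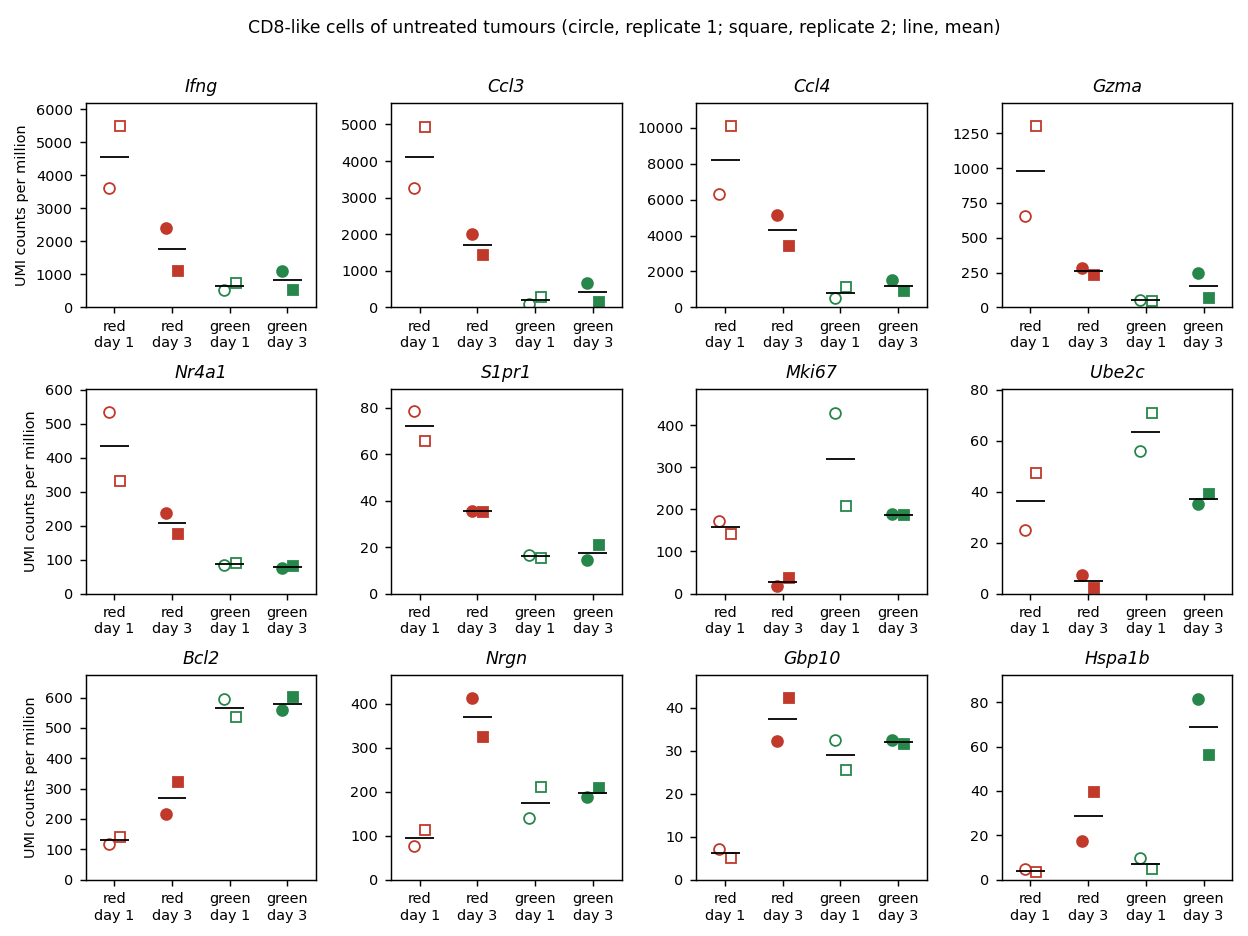
CPM in CD8-like cells for single genes; each panel shows red and green samples of day 1 and day 3, with circles for replicate 1, squares for replicate 2, open symbols for day 1, filled ones for day 3 and a line at the mean. Both red day 3 points lie below both red day 1 points for Ifng, Nr4a1 and Mki67 and above them for Nrgn and Bcl2; green Bcl2 lies above all red points on both days.

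Among granule proteins, Gzma (granzyme A) was at 653 and 1298 CPM in red cells at day 1 and at 283 and 233 at day 3, and it fell with the NT pools alone (log2 -1.88 ± 0.35, edgeR adjusted p = 0.0442). In green cells it was at 53.1 and 46.1 CPM and then 245 and 66.4, the opposite order. Gzmb (granzyme B) fell in red cells from 927 and 1013 to 663 and 396 CPM (adjusted p = 0.0457), and Ctsw, a protease of cytotoxic cells, rose from 594 and 578 to 904 and 790 CPM (adjusted p = 0.0457). Of the 19 cytotoxic genes tested, 4 fell (Gzma, Gzmb, Gzmc and Gzmf) and 1 rose, where 0.825% and 0.53% of all genes did. The median change of this list was -0.87 in red with all pools, against 0.01 over all genes. Gzmc and Gzmf were low in red cells throughout, between 0 and 39.8 CPM. Gzmf fell in green cells as well (log2 -1.55 ± 0.12, edgeR adjusted p = 0.0139, NT pools alone). Gzmm, another granzyme and outside that list, fell from 25.1 and 23.9 to 2.02 and 2.61 CPM (log2 -3.36 ± 0.53, adjusted p = 0.024).

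Genes induced by T cell receptor signals made up a second group. Nr4a1, an immediate early nuclear receptor, was at 535 and 331 CPM in red cells at day 1 and 237 and 176 at day 3, and it fell by 1.06 ± 0.11 on the log2 scale (edgeR adjusted p = 0.0101, NT pools alone). In green cells it was lower on both days, at 84.9 and 91 and then 74.4 and 79.8 CPM. Thus red cells of day 3 still lay above all green samples. Of the 16 early activation genes tested, 5 fell (Nr4a1, Nr4a3, Egr1, Egr3 and Cd40lg) and 0 rose, where 0.825% of all genes fell. Both red day 3 samples lay below both red day 1 samples for 11 of the 16, against 22.8% of all genes. Cd40lg, the ligand of CD40, fell from 132 and 135 to 35 and 58.8 CPM (adjusted p = 0.0135). Egr2, of the same family as Egr1, did not pass, at 82 and 75.5 and then 118 and 62.7 CPM, and Cd69 did not either, at 527 and 445 and then 406 and 422 CPM. The median of this list was -0.39 in red.

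Cell cycle transcripts were lower at day 3 in both colours. Mki67, a marker of cycling cells, was at 172 and 142 CPM in red cells at day 1 and at 18.8 and 37 at day 3 (log2 -2.45 ± 0.32, edgeR adjusted p = 0.0135, NT pools alone). Green cells had 430 and 209 CPM and then 189 and 186, and did not pass. Of the 23 cell cycle genes tested in red, 8 fell, among them Cenpf, Ccna2, Ube2c, Birc5 and Stmn1, and 0 rose, where 0.825% of all genes fell. In red, 20 of the 23 had both day 3 samples below both day 1 samples, against 22.8% of all genes, with a list median of -1.54. In green, 20 of the 23 also did, against 18.1% of all genes, with a list median of -0.76 and 0 that passed. A cluster of cycling cells, led by histone genes, Ccna2 and Rrm2, held 12 of 233 red CD8-like cells at day 1 and 1 of 188 at day 3, and 18 of 169 and then 14 of 214 green ones. With that cluster and the other clusters of mixed lineage left out, and all pools in the fit, the change of Mki67 in red was -1.06 ± 0.31 (adjusted p = 0.211) in place of -2.44 ± 0.48 (0.225), and that of Stmn1 was -0.62 ± 0.49 in place of -2.06 ± 0.55. The change of Ube2c was -1.58 there, in place of -3.07. Ube2c, for example, was at 25.1 and 47.5 CPM in red cells and then at 7.4 and 2.18, and at 56.1 and 71 CPM in green cells and then at 35.2 and 39.2.

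Receptors of trafficking and survival genes came next. S1pr1, the receptor for exit from lymph nodes and tissues, fell in red cells from 78.4 and 65.8 to 35.7 and 35.3 CPM (edgeR adjusted p = 0.045, NT pools alone), and was at 14.3 to 20.9 CPM in the 4 green samples. Itgb7, an integrin chain used in homing to mucosa, fell from 239 and 252 to 124 and 132 CPM (adjusted p = 0.0165). Klf3, a transcription factor of quiescent lymphocytes, fell from 28.7 and 35.9 to 12.8 and 11.8 CPM, while Bach2, a repressor that limits effector differentiation, rose from 153 and 104 to 274 and 207 CPM (adjusted p = 0.0241). Ccr7, Klf2, Tcf7 and Il7r did not pass. Bcl2, a survival factor, was at 117 and 142 CPM in red cells at day 1 and at 217 and 321 at day 3, and it rose by 1.03 ± 0.12 (adjusted p = 0.0104). Green cells were at 537 to 600 CPM on both days, above all red samples.

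Inhibitory receptors did not move as a group. Of the 17 exhaustion genes tested, Nrgn was the 1 that passed; it encodes neurogranin, a calmodulin-binding protein. Nrgn rose in red cells from 77.2 and 112 to 414 and 325 CPM (log2 1.92 ± 0.21, edgeR adjusted p = 0.0101, NT pools alone), and was at 140 and 211 and then 189 and 208 CPM in green cells. Pdcd1, which encodes PD-1, was at 406 and 451 CPM at day 1 and at 393 and 382 at day 3. Lag3 was at 295 and 314 and then 573 and 402 CPM (adjusted p = 0.0844), while Havcr2 (TIM-3) was at 291 and 363 and then 217 and 152 (adjusted p = 0.091), so the members' orders differed. Tox, a transcription factor of exhausted cells, was at 416 and 430 and then 199 and 349 CPM and did not pass. Cxcr6, a chemokine receptor of tissue T cells, was at 429 and 403 and then 714 and 515 CPM (adjusted p = 0.0735). Entpd1 and Itgae did not pass. Zfp683, which encodes the residency factor HOBIT, rose from 13.2 and 12 to 27.6 and 44.9 CPM (adjusted p = 0.0325), and was at 59.9 to 88.1 CPM in green cells.

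Interferon-induced genes were on balance higher at day 3 in red CD8-like cells. Of 27 tested, 17 had both red day 3 samples above both day 1 samples and 0 had them below, against 22.6% and 22.8% of all genes. With the NT pools alone 3 of the 26 tested there rose and 0 fell. Isg20, an exonuclease, rose from 56.2 and 59.4 to 156 and 147 CPM (log2 1.36 ± 0.18, edgeR adjusted p = 0.0165), beside 215 and 123 and then 198 and 187 CPM in green cells. Ifit3 rose from 79 and 115 to 170 and 196 CPM and Oasl2 from 2.99 and 7.27 to 8.75 and 25.3 CPM. The median of the list was 0.47 in red and -0.06 in green. A cluster of mixed lineage led by interferon-induced genes held 7 of 233 red CD8-like cells at day 1 and 18 of 188 at day 3. It held 11 of 169 and then 13 of 214 green ones. The part of these cells in the change of the list was not tested. Gbp10, an interferon-induced GTPase not on the list, rose from 7.18 and 5.13 to 32.3 and 42.2 CPM (adjusted p = 0.0101), to the level of the green samples at 25.5 to 32.6.

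A heat shock gene, Hspa1b, rose in both colours. It was at 4.79 and 3.42 CPM in red cells at day 1 and at 17.5 and 39.6 at day 3 (edgeR adjusted p = 0.0121, NT pools alone), and at 9.85 and 4.7 CPM in green cells and then at 81.5 and 56 (adjusted p = 0.0149). Hspa1b is induced by stress, tissue dissociation included, and of the 15 heat shock and dissociation genes tested 7 had both red day 3 samples above both day 1 samples, against 22.6% of all genes. The part of tissue handling in these day differences was not tested.

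The remaining genes with the largest changes in red CD8-like cells were mostly at low levels. Among those that rose were Cdh1 (E-cadherin), from 1.2 and 2.99 to 10.8 and 19.6 CPM, and Slc17a6, a glutamate transporter, from 4.19 and 5.56 to 54.5 and 20.9 CPM. Penk, the precursor of enkephalins, went from 1.2 and 13.9 to 19.5 and 67.9 CPM, Ms4a4c from 12.6 and 22.7 to 47.8 and 89.3 CPM, and Klra5, an inhibitory receptor, from 0 and 0.427 to 25.6 and 5.66 CPM. Among those that fell were Ggt1, from 28.7 and 40 to 0 and 3.92 CPM, Fxyd4, from 16.2 and 17.1 to 0 and 1.31, Cphx1, from 20.3 and 18.6 to 2.02 and 0.871, and Esm1, from 12 and 9.4 to 0 and 0.435. Cd7, a T cell surface protein, fell from 290 and 218 to 17.5 and 58.8 CPM (edgeR adjusted p = 0.0168), and was between 22.6 and 49.9 CPM in green cells. All of these passed with the NT pools alone.

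The red levels at day 3 were read against the green ones. For Cd7, Gbp10, Cdh1 and Ms4a4c both red day 3 samples were closer to the range of the 4 green samples, or within it, than both red day 1 samples. For Nrgn and Slc17a6 both red day 3 samples lay above all 4 green samples, while both red day 1 samples lay below all 4. Over 3644 expressed genes, the root mean square log2 difference between red and green CD8-like cells of a well was 0.509 and 0.43 at day 1 and 0.451 and 0.353 at day 3. Between days it was 0.392 and 0.314 in red and 0.296 and 0.179 in green, and between the replicates of 1 colour and day 0.238 to 0.298. Red cells of the 2 days thus differed by more than the replicates of any colour and day, and green cells did not. Between CD8-like samples of 1 day and 1 hashtag sequence, which the label tags give 1 colour, the difference was 0.363 to 0.514. In Treg-like cells the ranges overlapped, at 0.263 to 0.681 for replicates of 1 colour and day and 0.397 to 0.728 for 1 hashtag sequence. These distances carry no test, and they depend on cell number.

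**Figure D3:**
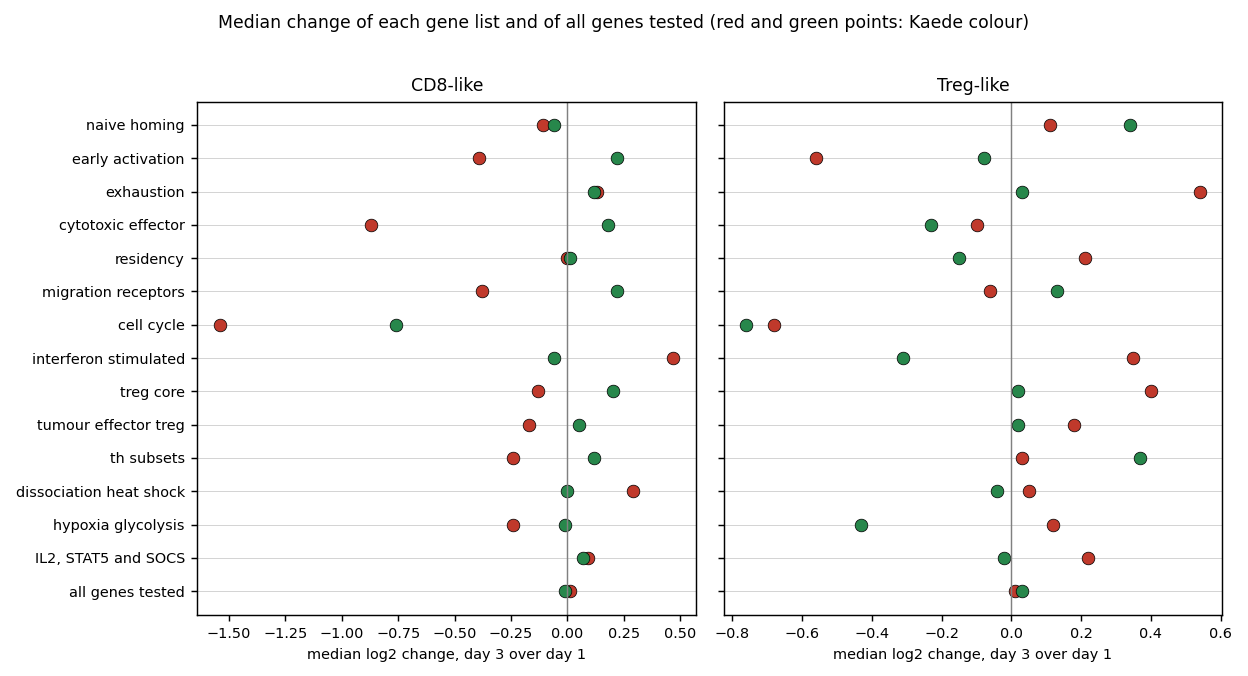
Median log2 change from day 1 to day 3 of each gene list and of all genes tested, in red and green cells of the CD8-like and Treg-like classes. In CD8-like cells the cell cycle list lies at -1.54 in red and -0.76 in green, and the interferon list at 0.47 in red and -0.06 in green.

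Markers of other cells were low in red CD8-like cells. Summed over 12 myeloid markers, their level was 97.7 and 218 CPM at day 1 and 153 and 66.5 at day 3, so it overlapped between days. The 6 B cell markers summed to 43.2 and 25.2 CPM and then 20.8 and 23.2, with 3 or 4 of the 6 at 0. Their part in the changes was not tested.

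Treg-like cells gave more changes than CD8-like cells in edgeR with all pools in the fit, whereas DESeq2 called 31 genes in red Treg-like cells and 39 in red CD8-like cells. Red Treg-like cells at day 3 had more transcripts of Laptm4b, Ebi3, Entpd1, Izumo1r, Neb and Timp2 than at day 1, and fewer of the actins Actb and Actg1, of Hmgb2 and of Cd7. The sums held 53 and 67 red cells at day 1 and 18 and 71 at day 3, and 6 and 45 green cells at day 1 and 25 and 40 at day 3. Of 8765 genes, 30 passed in red (0.342%), 20 higher (0.228%) and 10 lower (0.114%) at day 3, and 2 passed in green (0.0228%). With the NT pools alone 45 of 8760 genes passed in red (0.514%). Only 11 genes passed in red with the colours of the label tags, 1 higher and 10 lower at day 3. Laptm4b, Ebi3, Entpd1, Izumo1r, Actb and Actg1 were not among them. Thus at most 1 of the 20 genes called higher here was also called higher with those colours.

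Laptm4b, a lysosomal membrane protein, was at 22.9 and 23.4 CPM in red Treg-like cells at day 1 and at 99.7 and 121 at day 3 (log2 2.28 ± 0.32, edgeR adjusted p = 0.00491). In green cells it was at 10.8 and 31.6 and then 43.1 and 36.5 CPM. Ebi3, a subunit of the suppressive cytokine IL-35, rose in red cells from 25.6 and 19.2 to 75.7 and 92.4 CPM (adjusted p = 0.0141), with 32.5 and 84.9 and then 60.4 and 78.6 CPM in green cells. Entpd1, which encodes the ectonucleotidase CD39, rose from 120 and 110 to 347 and 220 CPM (adjusted p = 0.0207), with 195 to 308 CPM in the green samples. Izumo1r, which encodes folate receptor 4, a marker of Treg cells, rose from 104 and 167 to 457 and 400 CPM (log2 1.66 ± 0.25, adjusted p = 0.0079), with 260 to 489 CPM in green. For each of these 4 genes both red day 3 samples lay above both red day 1 samples, and the green samples of the 2 days overlapped for Ebi3 and Izumo1r. Without NT-D3 replicate 2, Laptm4b and Ebi3 missed the threshold (adjusted p of 0.079 and 0.237), and Ebi3 did so also without NT-D1 replicate 2 (0.23). Izumo1r missed it without NT-D1 replicate 1 (0.114), and Entpd1 without NT-D1 replicate 1, NT-D1 replicate 2 or NT-D3 replicate 1 (0.345, 0.0704 and 0.141).

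Other genes that rose in red Treg-like cells have less settled roles in T cells. With the colours of the label tags, 1 gene in all was called higher in red. Neb, which encodes the muscle protein nebulin, was at 188 and 162 CPM at day 1 and at 526 and 403 at day 3 (edgeR adjusted p = 0.00491), with 433 to 707 CPM in green. Timp2, an inhibitor of metalloproteinases, went from 59.3 and 44.5 to 210 and 131 CPM (adjusted p = 0.0129), and Rgs10, a regulator of G protein signals, from 86.3 and 89 to 213 and 216 CPM (adjusted p = 0.0136). Nckap5 went from 18.9 and 35.5 to 244 and 156 CPM (adjusted p = 0.043). It lost its call in 5 of 15 alternatives, among them DESeq2, no replicate block and the fit without NT-D1 replicate 1. Cd200r1, an inhibitory receptor, went from 51.9 and 23.4 to 89.4 and 123 CPM (adjusted p = 0.0354). It lost its call in 7 of 15 alternatives, the fits without NT-D1 replicate 2 or NT-D3 replicate 2 among them. Jun, an AP-1 factor also induced by dissociation, went from 74.8 and 176 to 296 and 350 CPM (adjusted p = 0.0486). Its call was lost in 7 of 15 alternatives, the fits without NT-D1 replicate 1 or NT-D3 replicate 1 among them. Myo3b, Rnase4, Podnl1 and Smyd3 rose as well, with log2 changes of 1.87, 1.82, 1.76 and 1.68. In 15 alternatives they lost their calls 6, 6, 7 and 5 times, and each did so without NT-D1 replicate 1.

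**Figure D4:**
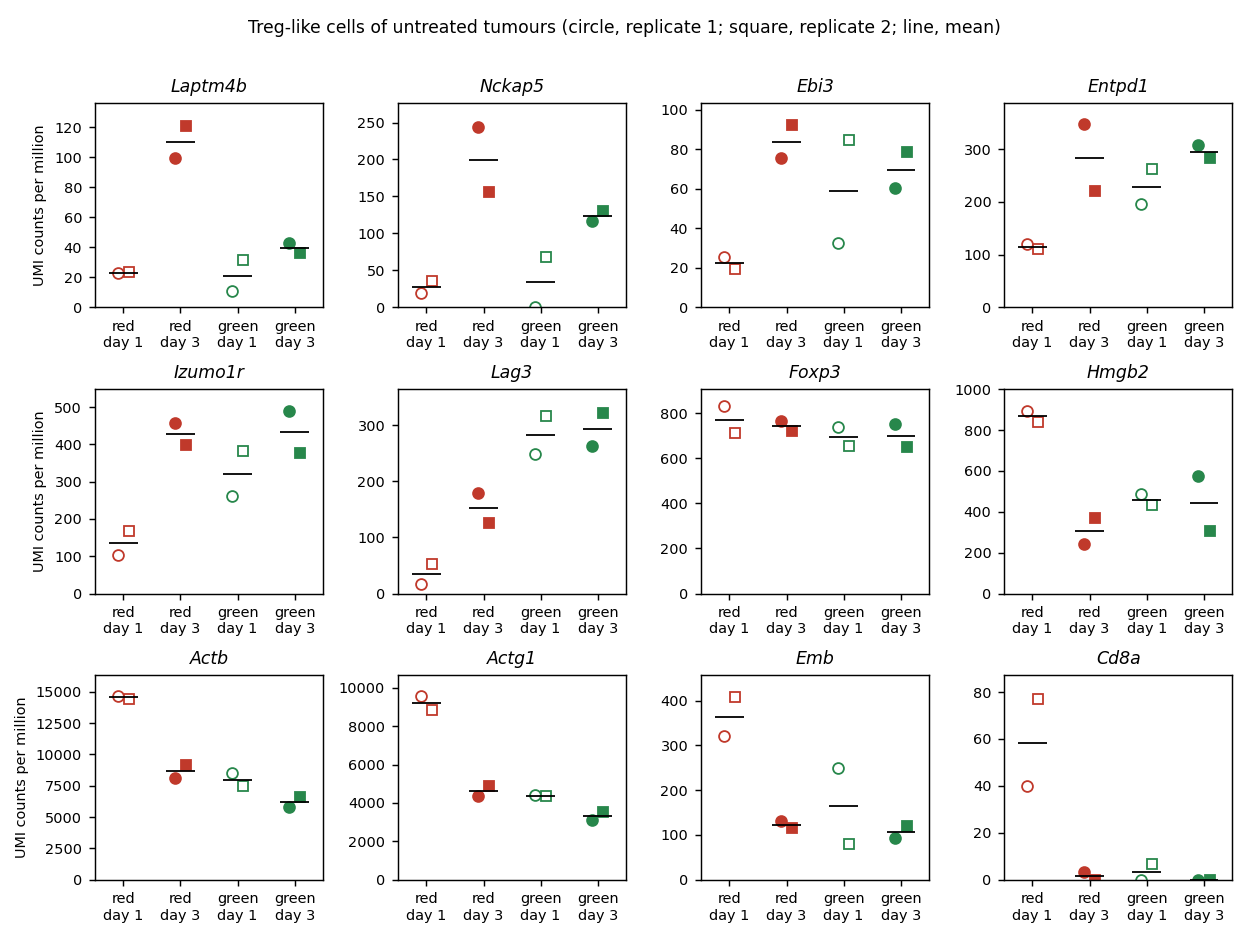
CPM in Treg-like cells for single genes; each panel shows red and green samples of day 1 and day 3, with circles for replicate 1, squares for replicate 2, open symbols for day 1, filled ones for day 3 and a line at the mean. Both red day 3 points lie above both red day 1 points for Laptm4b, Entpd1 and Izumo1r and below them for Actg1 and Hmgb2, and Foxp3 stays between 649 and 832 in all samples.

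The genes that fell in red Treg-like cells included 2 abundant cytoskeletal ones. Actg1, gamma actin, was at 9554 and 8854 CPM at day 1 and at 4368 and 4855 at day 3 (edgeR adjusted p = 0.00386), and at 4427 and 4342 and then 3132 and 3518 CPM in green cells. Its call was lost only with the colours of the label tags (adjusted p = 0.647) among the alternatives run. Actb, beta actin, fell from 14690 and 14430 to 8096 and 9189 CPM (adjusted p = 0.009), and missed the threshold without NT-D3 replicate 1 (0.134) or NT-D3 replicate 2 (0.0761). Red cells of day 3 thus came closer to the green levels of both actins than red cells of day 1. Hmgb2, a chromatin protein high in cycling cells, fell from 896 and 840 to 244 and 367 CPM (adjusted p = 0.00916). Emb, embigin, fell from 322 and 407 to 131 and 115 CPM. In 15 alternatives Hmgb2 lost its call 3 times, the fit without NT-D1 replicate 1 among them. Emb lost its call 5 times, the fits without NT-D1 replicate 2 or NT-D3 replicate 2 among them. H2ax, a histone variant of DNA repair, fell from 53.3 and 119 to 6.88 and 29.3 CPM (adjusted p = 0.0207). Its call was lost in 6 of 15 alternatives, among them the fit with the clusters of mixed lineage left out (0.735).

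Cd8a and Cd8b1, the chains of the CD8 coreceptor, were also among the genes that fell in red Treg-like cells. Cd8a was at 39.8 and 77 CPM at day 1 and at 3.44 and 0 at day 3, and Cd8b1 at 41.1 and 106 and then 0 and 9.02 CPM. Cd7, a gene that also fell in red CD8-like cells, went from 51.9 and 62.5 to 0 and 2.25 CPM. Cells with at least 10 Cd8 UMIs numbered 1 of 53 and 4 of 67 in the red Treg-like cells of day 1, and 0 of 18 and 0 of 71 at day 3. Of the 5 such cells 1 had 2 TCR beta chains. With cells of 2 chains left out, Cd8a (adjusted p = 0.111) and Cd8b1 (0.0581) no longer passed, at changes nearly as large (log2 -6.16 in place of -6.41, and -3.39 in place of -3.63). Without NT-D1 replicate 2 (0.249 and 0.123) or NT-D3 replicate 2 (0.297 and 0.0988) neither passed. Neither passed with the colours of the label tags (0.559 and 0.804), and Cd8a did not in DESeq2 (1). Whether the cells with Cd8 UMIs were doublets was not tested.

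The fixed lists placed few of these genes. Of 12 core Treg genes tested Izumo1r alone rose, of 20 genes of tumour effector Treg cells Ebi3 and Entpd1 rose, and of 13 exhaustion genes Entpd1 rose, where 0.228% of all genes did. No gene of these 3 lists fell. Lag3, an inhibitory receptor on all but the first of these lists, was at 16.9 and 53.5 CPM in red cells at day 1 and at 179 and 126 at day 3, and it passed with the NT pools alone (log2 2.08 ± 0.36, edgeR adjusted p = 0.0148) but not with all pools (0.0961). In green cells Lag3 was at 250 to 323 CPM. The median changes of the 3 lists were 0.40, 0.18 and 0.54 in red, against 0.01 over all genes. Foxp3 itself was level, at 832 and 710 and then 767 and 722 CPM, as was the chemokine receptor gene Ccr8, at 264 and 275 and then 200 and 255. Neither passed.

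Several cytokine and repair genes of Treg cells overlapped between the days in red. Il10 was at 37.1 and 156 CPM in red cells at day 1 and at 151 and 349 at day 3, and at 955 and 476 and then 177 and 350 CPM in green, where day 1 replicate 1 had 6 cells. Areg, a tissue repair factor, was at 389 and 469 and then 447 and 112 CPM in red, and Il1rl1, the IL-33 receptor, at 62.7 and 72.8 and then 68.8 and 81.9. Nr4a1 was at 585 and 686 and then 251 and 342 CPM in red Treg-like cells (edgeR adjusted p = 0.218), the same order as in red CD8-like cells, but it did not pass here. Tox, Itgae and Il7r did not pass either, although both red day 3 samples of each lay above both of day 1. The cell cycle list had a median of -0.68 in red and -0.76 in green, with 0 of 20 genes passing in red.

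Most red Treg-like cells of day 1 (73.3%) were in a cluster led by Areg, Ccr3 and Foxp3. At day 3 that cluster held 36.0% of them, and 50.6% were in a cluster led by Frmd5, Nckap5, Il10, Neb and Laptm4b, which also held 62.7% of green Treg-like cells at day 1 and 75.4% at day 3. The clusters were formed from the same counts, so this shift is not separate evidence for Nckap5, Neb and Laptm4b. Myeloid markers summed to 257 and 311 CPM in red Treg-like cells at day 1 and to 254 and 490 at day 3. The 6 B cell markers summed to 277 and 264 CPM at day 1 and to 437 and 284 at day 3, with 2 or 3 of the 6 at 0, so both day 3 samples lay above both day 1 samples. The part of these transcripts in the changes of red Treg-like cells was not tested.

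In green Treg-like cells Cxcl10, an interferon-induced chemokine, fell from 239 and 245 to 53.9 and 23.9 CPM (log2 -2.73 ± 0.43, edgeR adjusted p = 0.0401), and in red cells it was at 127 and 235 and then 27.5 and 126 (adjusted p = 0.197). The green call of Cxcl10 was lost without NT-D1 replicate 2 (0.111) or NT-D3 replicate 2 (0.363), with at least 10 cells in a sum (0.0894), which leaves out the 6 cells of day 1 replicate 1, without the replicate block (1), with the colours of the label tags (1), with the clusters of mixed lineage left out (0.141), and with the marker gate (1), where the change was -1.15. Trbv31, a TCR beta segment, rose in green cells from 0 and 3.27 to 12.9 and 126 CPM, and missed the threshold without NT-D1 replicate 2 (0.836) or NT-D3 replicate 2 (0.596), without the replicate block (1), with the marker gate (0.269) and with at least 10 cells (0.0894), and turned to -1.52 with the colours of the label tags. Expression of a receptor segment follows the clones that were caught. Trav13-2 and Trbv23 were at 0 in both red samples of day 1 and were at 92.9 and 29.3 and at 48.1 and 33.8 CPM at day 3. TRBV23 was read in 1 of 15 and 2 of 65 cells with a chain. For the difference between red and green changes Trbv31 alone passed, and no other gene did (0.0114% of 8765 genes), so for Laptm4b, Entpd1, Izumo1r, Actb and Actg1 a larger change in red than in green was not shown.

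With red and green counts added, which does not depend on which tag is red, 15 of 9809 genes (0.153%) passed in Treg-like cells and 0 of 10977 (0.0%) in CD8-like cells, where 1282 (11.7%) had an unadjusted p below 0.05 and DESeq2 called 66. With the NT pools alone these counts were 53 (0.551%) and 131 (1.2%).

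CD4 conventional-like cells were few and gave almost no changes. The sums held 15 and 25 red cells at day 1 and 10 and 35 at day 3, and 18 and 27 and then 28 and 58 green cells. Of 7605 genes, 1 passed in red (0.0131%) and 0 in green (0.0%), where 264 (3.47%) had an unadjusted p below 0.05 and DESeq2 called 0. The gene in red was Trbv20, a TCR segment, at 421 and 124 CPM at day 1 and at 0 and 0 at day 3, read in 2 of 15 and 2 of 24 cells at day 1. Nr4a1 was at 299 and 203 and then 80.8 and 135 CPM, and Cd69, an early activation marker, at 736 and 644 and then 440 and 400 CPM in red and at 1030 and 642 and then 306 and 498 in green. Lag3 was at 29.6 and 32.9 and then 80.8 and 80.7 CPM. For these 3 genes the red samples of the 2 days did not overlap, as for 14.2% of all genes upward and 16.2% downward, and none passed. Il10, an inhibitory cytokine, passed with the NT pools alone (4 genes, 0.0549% of 7292), at 7.39 and 0 and then 413 and 24.7 CPM, so a single sample carries most of it.

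**Figure D5:**
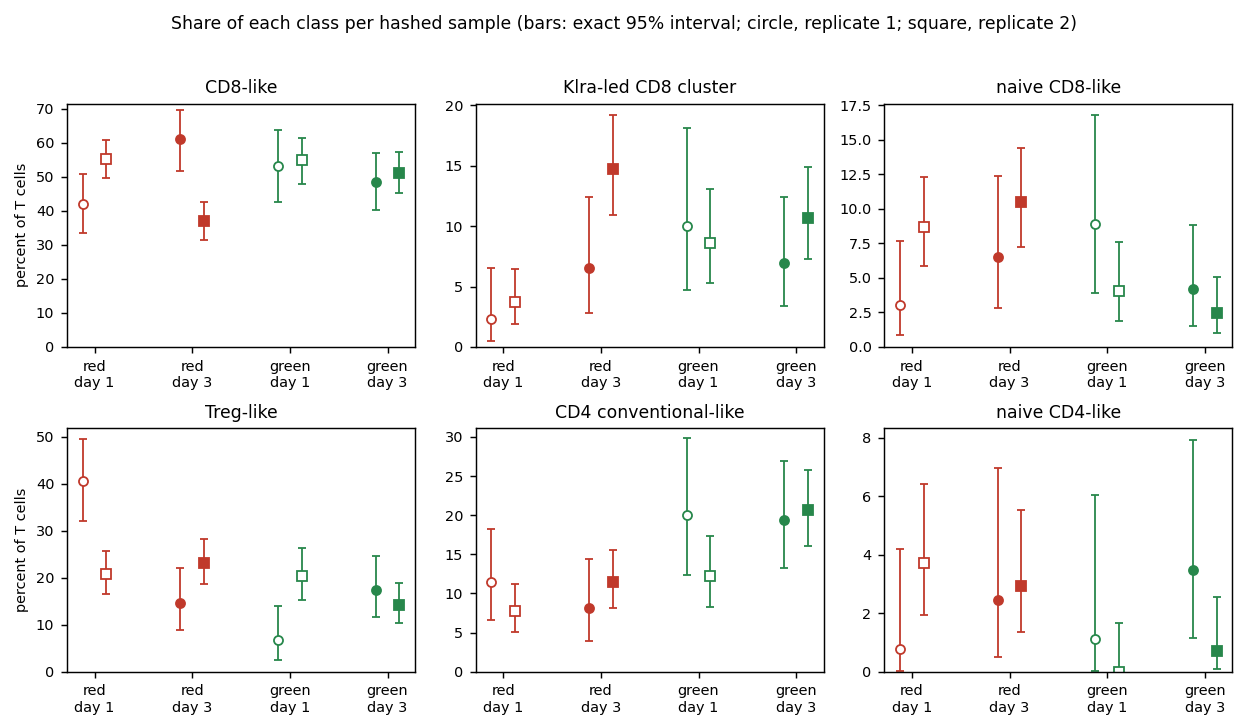
Percent of T cells in each class per hashed sample, with exact binomial 95% intervals; circles are replicate 1 and squares replicate 2, for red and green cells of day 1 and day 3. The red Treg-like share moved from 40.5 to 14.6% in replicate 1 and from 20.8 to 23.2% in replicate 2.

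The shares of CD8 lineage and Treg-like cells among red cells changed in opposite directions in the 2 replicates. CD8 lineage cells were 47.3% and 67.7% of red T cells at day 1 and 74.0% and 62.1% at day 3, so the change was 26.7 percentage points in replicate 1 and -5.61 in replicate 2. Treg-like cells were 40.5% and 20.8% and then 14.6% and 23.2% of red cells, a change of -25.8 and 2.4 points. CD4 cells other than Treg-like cells were 12.2% and 11.5% and then 10.6% and 14.4%. In green cells CD8 lineage cells were 72.2% and 67.4% and then 59.7% and 64.4%, both lower at day 3. An exact permutation test of 2 pools against 2 cannot give a p below 0.333, so shares were not tested.

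The CD8 cluster led by Klra genes, which encode inhibitory and activating receptors of the Ly49 family, was 2.29% and 3.73% of red cells at day 1 (3 and 12 cells) and 6.5% and 14.7% at day 3 (8 and 45 cells). Both red day 3 shares lay above both day 1 shares, and the green shares of 10.0% and 8.6% and then 6.94% and 10.7% overlapped. Naive CD8-like cells, with Ccr7, Lef1 and Tcf7, were 3.05% and 8.7% and then 6.5% and 10.5% of red cells. In green cells they were 8.89% and 4.07% and then 4.17% and 2.49%. Naive CD4-like cells numbered 1 and 12 red cells at day 1 and 3 and 9 at day 3, and at most 5 in a green sample.

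Naive CD8-like cells could be fitted in green alone, with 8 and 9 cells at day 1 and 6 and 7 at day 3, since red day 1 replicate 1 had 4. Of 4696 genes 22 passed (0.468%), 5 higher (0.106%) and 17 lower (0.362%) at day 3. Several of them were TCR beta segments, which follow the few cells caught, and Trbv13-1, Trbv13-3 and Trbv15 each had counts in a single green sample. Klra7, which also leads the Klra-led CD8 cluster, fell from 164 and 236 to 0 and 0 CPM (edgeR adjusted p = 8.02e-06). Ccl5 fell from 2240 and 4140 to 1320 and 361 CPM (edgeR adjusted p = 0.00388), a call that 3 of 7 alternatives lost. Fos, an immediate early factor, fell from 724 and 1140 to 231 and 374 CPM (log2 -1.62 ± 0.34, edgeR adjusted p = 0.00628), and Nr4a2, of the Nr4a family, from 231 and 259 to 48.1 and 33.4 CPM (adjusted p = 0.00791). Xcl1, a chemokine of activated CD8+ cells, fell from 310 and 289 to 28.9 and 0 CPM, and Dapl1, a gene of naive CD8+ cells and of the fixed naive markers, rose from 109 and 15.2 to 424 and 201 CPM (adjusted p = 0.00107). DESeq2 called 0 genes here and the fit without the replicate block 1, and Fos and Nr4a2 were lost without NT-D1 replicate 2 (adjusted p of 0.133 and 0.139) and Fos also without NT-D1 replicate 1 (0.145).

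In red naive CD8-like cells, Ccr7 was at 631 and 633 CPM at day 1 and at 852 and 550 at day 3. S1pr1 was at 240 and 221 and then 297 and 251 CPM, which is higher than in red CD8-like cells, where all samples were at 35.3 to 78.4. Klf2, a factor that drives S1pr1, was at 2210 and 1620 and then 1290 and 1490 CPM. Counts of 4 and 8 cells stand behind the values of replicate 1.

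Clone expansion in red cells overlapped between the days. The probability that 2 red cells of a sample shared a TCR beta sequence was 0.341% and 0.834% at day 1 and 3.03% and 0.185% at day 3. In green cells it was 0.441% and 0.548% and then 0.415% and 0.304%, both lower at day 3. The red day 3 samples were thus the highest and the lowest of all. Counted by TCR beta alone, the largest red clone had 4 and 20 cells at day 1 and 14 and 9 at day 3. The 14 cells share the beta sequence of the TRBV16 clone above, which held 10 of them by both chains, and 4 had a TRAV7N-5 alpha chain. With samples paired by well, red cells that shared a TCR beta with green cells numbered 0 of 124 at day 1 in replicate 1, which allows a share of up to 2.42%, and 2 of 304 in replicate 2. At day 3 they numbered 1 of 111 and 4 of 291. With samples paired by hashtag sequence, the same shares were 21.0% and 10.2% at day 1 and 44.1% and 8.93% at day 3.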

How the data were processed

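CD90.2+ T cells of MC38 tumours were profiled by droplet single-cell RNA-seq with hashtag and TCR libraries. Per the submitters' processing notes, Cell Ranger 8.0.1 and build mm39 were used, and the authors deposited UMI counts per gene and cell, UMI counts per hashtag and assembled TCR contigs, with their UMI counts. How Cell Ranger was set for strand is not given in the sources used here. The members and gene lists were chosen with earlier results of these data known.

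From the deposited counts, cells were filtered as the text describes, scaled to 10000 UMIs per cell, reduced to 2000 variable genes and 30 principal components, and clustered (scanpy 1.11.5, 15 neighbours, leidenalg 0.10.2, resolution 1). Clusters were named from fixed markers, with at least 3 needed. A marker counted when its mean was at least 1.25 times that of all other cells and at least 10% of the cluster's cells held it. The cluster led by Cphx1, Cd7 and Gzma had 4 CD8 markers and 5 naive CD8 markers by this count, and was placed in CD8-like cells. The cell cycle, interferon and p53 clusters were split cell by cell on Foxp3, Cd4 and Cd8 UMIs. No doublet caller was run; cells with 2 TCR beta chains (0.813 to 5.23% per sample) were left out as an alternative.

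UMI counts were summed per hashed sample and class where at least 5 cells were present. They were tested with edgeR 4.0.16 (R 4.3.3; filterByExpr, TMM, glmQLFit, glmQLFTest), with the well as a block and p-values adjusted over all genes tested (threshold 0.05). The difference between colours had the tumour pool, paired by well, as a block. Tumour pools of 1 well share a library and the comparison was asked within wells, which is where the block comes from; the replicate numbers do not come from shared animals. Tested on simulated data, the fit on red CD8-like cells recovered 55% of genes changed by a log2 of 1 and 96% of those changed by 2, with 9 false calls. On red Treg-like cells it recovered 41% and 99%, with 3 false calls. The simulated counts held no well effect, took their spread from the trend of the real fit, and changed only genes with ample counts. These percentages are therefore not the share of true changes found in the real data. Total depth was 2133280 to 7891316 UMIs per hashed sample. Intervals are exact (Clopper-Pearson, scipy 1.17.1), and the limit that a count of 0 allows is 3 counts of the total.

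Named genes are the 10 largest log2 changes in each direction among genes that passed with 1 direction in both wells (all where fewer passed), a fixed panel of 30 genes, and members of the fixed lists that passed; a choice of them is printed. Genes with no count in a group get no fold. The distances between samples (genes of at least 50 CPM on average, 10 CPM added) and the clone sharing across wells were chosen after seeing the data. The fit of the NT pools alone was planned as an alternative, and naming genes from it was decided after the main fit had been seen. Alternatives were RLE size factors, DESeq2 1.42.0, no filter on low counts, no block, NT pools only, colours of the label tags, a marker gate, at least 10 cells, and leaving out each pool. Added after seeing the data were leaving out clusters of mixed lineage, leaving out TCR segment genes, and crossed pools. RT-D3 and FTY720 samples were not used in any comparison.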

Additional observations from a re-analysis of the deposited data

Results flagged for a closer look

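Some genes differed between the colours in their change from day 1 to day 3, by the test of the difference itself in edgeR with Benjamini-Hochberg adjustment. All of these tests pair red with green samples by well, and the clones shared across wells leave that pairing uncertain.

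In CD8-like cells Ifng (adjusted p = 0.00304) and Ccl4 (adjusted p = 0.014) fell in red relative to green when the NT pools were fitted alone. Their values are given above, and this fit of the NT pools alone was not repeated with crossed pools or with the colours of the label tags. Both are lower at day 3 in 2 of 2 red replicates.

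In Treg-like cells Trbv31 passed (adjusted p = 0.000884), at 4.72 and 83.6 CPM in red cells at day 1 and 0 and 21 at day 3, and at 0 and 3.27 and then 12.9 and 126 CPM in green cells. The call of Trbv31 was lost with crossed pools (log2 -3.62, adjusted p of 1), in DESeq2 (0.105), with the marker gate (0.2), without the block (1) and without NT-D1 replicate 2 (0.805), and the direction turned with the colours of the label tags (4.86, adjusted p of 1). In CD4 conventional-like cells the TCR segments Trav13-1 (adjusted p = 0.0073) and Trbv20 (adjusted p = 0.0164) passed. Trav13-1 was at 0 and 220 CPM in red cells at day 1 and 0 and 1.65 at day 3, and at 0 and 0 and then 62.6 and 25 CPM in green cells. Trbv20 was at 194 and 111 CPM in green cells at day 1 and 79.9 and 136 at day 3. With crossed pools neither Trav13-1 (0.123) nor Trbv20 (0.455) passed, and both missed the threshold without NT-D3 replicate 1 (0.0534 each) or NT-D3 replicate 2 (0.123 and 0.971), and Trav13-1 also without NT-D1 replicate 2 (1). Neither passed without the replicate block (0.822 and 0.346) or with the colours of the label tags (1 each). In 15 alternatives Trav13-1 lost its call 8 times and Trbv20 6 times. Both are segments of single receptors, and a few clones can set them.

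With the NT pools alone, 3 more genes passed in CD4 conventional-like cells. That fit was not repeated with crossed pools or the colours of the label tags either. Tnfsf8, which encodes CD30 ligand (adjusted p = 0.00154), was at 262 and 730 CPM in red cells at day 1 and 1069 and 1324 at day 3, and at 336 and 1147 and then 222 and 338 CPM in green cells. Rgs16, a regulator of G protein signals (adjusted p = 0.0309), was at 0 and 60.8 and then 108 and 183 CPM in red, and at 77.5 and 298 and then 54 and 81.7 in green. Gm41331 (adjusted p = 0.0434) was at 229 and 53.2 and then 8.98 and 13.2 CPM in red, and at 47.4 and 12.1 and then 64.8 and 32.9 in green. All 3 had 1 direction in both replicates of red cells, and Tnfsf8 and Rgs16 the opposite one in both replicates of green.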

How the results depend on the processing

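Counts of genes past the threshold are given for red, green, the red minus green difference and both colours summed, as far as they moved by over 1.5 times. For CD8-like cells (0, 0, 0 and 0) DESeq2 gave 39, 1, 6 and 66, no filter on low counts 365, 69, 148 and 326, and the NT pools alone 138, 4, 2 and 131. In red the colours of the label tags gave 1, the marker gate 22 and leaving out mixed clusters 22; for the difference leaving out mixed clusters gave 1. Both colours summed gave 34 with the marker gate, 53 without mixed clusters, 15 without TCR segment genes and 14 with crossed pools. For Treg-like cells (30, 2, 1 and 15) no filter gave 175, 53, 34 and 330. The label colours gave 11, 0 and 0 for red, green and the difference. Green had 8 with the NT pools alone, 0 with the marker gate, 0 with at least 10 cells and 1 without TCR segment genes. The difference had 3 with RLE, 0 with DESeq2, 0 with the marker gate, 8 without cells of 2 TCR beta chains, 18 without mixed clusters, 23 with at least 10 cells, 0 without TCR segment genes and 4 with crossed pools. Both colours summed had 26 with DESeq2, 53 with the NT pools alone, 9 with the marker gate, 27 without TCR segment genes and 23 with crossed pools. For CD4 conventional-like cells (1, 0, 2 and 1) no filter gave 46, 46, 29 and 104, and the NT pools alone 4, 0, 5 and 2. DESeq2 gave 2 in red and 3 for both summed, the label colours 1 in green and 0 for the difference, and at least 10 cells 5 for the difference. Leaving out TCR segment genes gave 0 for red, the difference and both summed, crossed pools 0 for the difference and both summed, and both summed had 2 with the marker gate and 6 without mixed clusters. Green naive CD8-like cells (22) had 0 in DESeq2. The causes were not tested.

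Leaving out 1 pool at a time gave 0 to 5 genes in red CD8-like cells, 0 to 5 in green, 0 for the difference and 0 to 28 for both summed. In Treg-like cells it gave 25 to 63, 1 to 23, 3 to 33 and 59 to 579, in CD4 conventional-like cells 1 to 22, 3 to 25, 0 to 28 and 11 to 157, and in green naive CD8-like cells 23 to 24. A day left with 1 pool is assumed to vary like the other groups. Naive cells could not be fitted without a day 3 pool.

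Without the replicate block, red Treg-like cells had 18 genes, green 0 and the difference 0; CD8-like cells of both colours summed had 11, CD4 conventional-like cells 0 for the difference and 0 for both summed, and green naive CD8-like cells 1. Deviations of samples of the same well correlated between days at 0.04 in red CD8-like, 0.055 in red Treg-like and 0.16 in red CD4 conventional-like cells, so the numbers pair the samples weakly.

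Only the colours of the label tags turned a direction: Ifng for the difference in CD8-like cells (0.10), Actg2 in red Treg-like cells (0.024), and Trbv31 in green Treg-like cells (-1.52) and for the difference (4.86). The change in sharing of TCR beta between colours (0.806 points) was 0.539 with both chains, 1.72 with label colours and 11 with crossed pools, and that of the green pair probability was -0.338 with label colours. With 2 pools a day and 6 to 178 cells a sum, changes below a log2 of 1 were often not detectable.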
